A study of Mus musculus with 12 samples.

Results

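The genes described here are 38 interferon-stimulated genes, among them 5 guanylate-binding proteins (GBPs), found by symbol among the 55335 entries of each of the series' 2 count tables. All 38 were found in both tables. They fall into 7 groups by the role of their products, which are transcription factors, ubiquitin-like modifiers and their enzymes, RNA and DNA sensors, antiviral effectors, GTPases, the PARP9 and DTX3L module, and nuclear body or signalling scaffolds.

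RNA-seq had been run on mouse small intestinal organoids, self-organising epithelium embedded in basement membrane extract, all from the female line labelled line26 wild type, Lgr5GFPDTR/+, so that every library carries the Lgr5GFPDTR allele and derives from 1 mouse. ENR control organoids grew in ENR medium (EGF, Noggin and R-spondin) and were collected at day 6. RANKL organoids received 3 µM CHIR99021, a GSK3 inhibitor, and 1.5 mM valproic acid (which inhibits histone deacetylases) over 3 days. This was followed by 1 day of ENR and 6 days of 100 ng/mL RANKL, the cytokine that induces microfold (M) cells. RANKL II is a second RANKL set, and RANKL+CSRM617 had the RANKL regimen with 40 µM CSRM617, which is used to inhibit the transcription factor ONECUT2. The control libraries' names start with CVENR, and no label says whether the controls also had CHIR99021 and valproic acid, so RANKL and this pre-treatment cannot be told apart. Each of the 4 groups has 3 libraries, which the series describes as independent differentiation experiments. All come from 1 organoid line, so the p-values measure the spread between these experiments and not between mice.

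Type I interferons signal through IFNAR1 and IFNAR2, and type III interferons through IFNLR1 and IL10RB, to the kinases JAK1 and TYK2. Both lead to a complex containing STAT2 and IRF9 that binds the interferon-stimulated response element (ISRE) in target promoters. Type II interferon (IFN-gamma) signals through IFNGR1 and IFNGR2, JAK1 and JAK2 to the gamma-activated site (GAS) of target promoters, and induces IRF1 and many GBPs. The intestinal epithelium is known to respond to type III interferon, and intestinal epithelial cells keep a low level of interferon-stimulated transcripts in the absence of infection.

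RefSeq promoter entries (GRCm38.p6, 250 bases before to 50 bases after the start) matched 31 of the 38 members. No entry was matched for Usp18, Gbp6, Gbp9, Parp9, Parp14, Dhx58 and Zbp1. The ISRE core GAAANNGAAA was searched on both strands (TTTCNNTTTC on the other). It stood in the window of 15 of the 31 members (48.4%), against 3.99% of all 27025 genes and 3.44% of all 32851 promoters. A member or gene counted if any of its promoter entries held the letters. The GAS letters TTCNNNGAA, which read the same on both strands, were in 10 of 31 (32.3%) against 9.55% of all genes and 8.30% of all promoters. The NF-kB letters GGGANNTTCC (GGAANNTCCC on the other strand) were in 2 of 31 (6.45%), Ifit2 and Gbp2, against 1.63% of all genes and 1.47% of all promoters. These counts describe letters, not occupied sites.

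The stretches below are shown because they span the range of the members that the results turn on: repeated ISRE cores, 1 ISRE core, ISRE with GAS, GAS alone, and none of these letters. Each is given 5′ to 3′ on the gene's strand and ends at the base before the transcript start or, for Ifit1, before the earliest annotated one. Capitals mark matches to the ISRE core or GAS. The positions in GRCm38 are chr4:156200819-156200968 (minus strand) for Isg15, chr19:34640739-34640870 (plus) for Ifit1 and chr12:26456453-26456602 (minus) for Rsad2. Those of the others are chr3:142530186-142530335 (plus) for Gbp7, chr11:53769864-53770013 (plus) for Irf1 and chr17:37193742-37193891 (plus) for Ubd.
Isg15: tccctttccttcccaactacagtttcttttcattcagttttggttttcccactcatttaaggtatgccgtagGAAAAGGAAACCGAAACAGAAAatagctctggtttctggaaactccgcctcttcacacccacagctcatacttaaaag
Ifit1: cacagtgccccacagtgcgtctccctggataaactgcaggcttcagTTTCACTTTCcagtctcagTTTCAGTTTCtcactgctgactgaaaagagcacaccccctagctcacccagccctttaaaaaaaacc
Rsad2: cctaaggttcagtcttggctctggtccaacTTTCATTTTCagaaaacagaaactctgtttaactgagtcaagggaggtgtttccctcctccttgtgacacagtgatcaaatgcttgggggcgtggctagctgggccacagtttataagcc
Gbp7: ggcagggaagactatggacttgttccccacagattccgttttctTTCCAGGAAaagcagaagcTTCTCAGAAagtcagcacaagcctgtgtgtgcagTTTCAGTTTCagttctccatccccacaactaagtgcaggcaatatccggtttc
Irf1: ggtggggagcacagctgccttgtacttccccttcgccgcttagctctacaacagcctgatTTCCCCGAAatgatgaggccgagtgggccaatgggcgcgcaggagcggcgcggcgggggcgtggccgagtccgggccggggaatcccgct
Ubd: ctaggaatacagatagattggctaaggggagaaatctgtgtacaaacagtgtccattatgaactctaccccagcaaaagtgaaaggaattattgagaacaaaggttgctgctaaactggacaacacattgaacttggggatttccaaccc
Isg15 held 3 overlapping ISRE cores between 78 and 57 bases before its start, and Rsad2 held 1, starting 120 bases before. Ifit1 held 2, starting 104 and 85 bases before its RefSeq start. That start lies downstream of the end of the Ifit1 stretch shown, so the cores stand closer to that end. Gbp7 held 2 GAS matches upstream of its ISRE core. Irf1 had a GAS match 90 to 82 bases before its start and no ISRE core, and Ubd had none of the searched letters. The NF-kB search took 1 fixed form of the letters, so other forms of an NF-kB site in these stretches were not counted.

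Total counts ran from 5795541 to 7719157 per library in the ENR control and RANKL table and from 8669153 to 14041947 in the CSRM617 table. The ribosomal RNA loci Gm26917 and Gm42418 together took 21.9% to 35.5% of the counts in ENR control, against 9.71% to 10.7% in RANKL; the RANKL II libraries had 6.44% to 6.71% and the RANKL+CSRM617 libraries 15.3% to 15.8%. Epithelial markers (8 genes, such as Epcam and Vil1) summed to between 3195 and 4772 CPM (a gene's counts scaled to library size, after TMM scaling) in every library. The 8 M cell markers summed to 57.9 to 63.5 CPM in ENR control and 943 to 1031 CPM in RANKL, and to 972 to 990 CPM in RANKL II and 976 to 1010 CPM with CSRM617. All 8 were higher with RANKL, and with CSRM617 4 were higher and 4 lower. The 8 mature enterocyte markers summed to 833 to 979 CPM in ENR control and 2314 to 3252 CPM in RANKL, although 4 were higher and 4 lower (median log2 fold change -0.19). They summed to 3399 to 3459 CPM in RANKL II and 8426 to 8739 CPM with CSRM617, where all 8 were higher. The 6 Paneth cell markers summed to 513 to 882 CPM in ENR control and 372 to 388 CPM in RANKL (5 lower, 1 higher), and to 558 to 573 CPM in RANKL II and 873 to 898 CPM with CSRM617 (5 higher, 1 lower). In a bulk library, fewer cells of a type and less RNA per cell cannot be told apart, and the part of these cell type shifts in the interferon genes was not tested.

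A control library stood apart in these genes. ENR control replicate 1 had 10 of the 31 tested members (32.3%) at least 2-fold above both other controls, against 0.612% of the 13570 genes tested. ENR control replicates 2 and 3 had 0 of 31 members at that distance, although 80 and 101 genes overall passed it there. The 10 members were Irf7, Ifit1, Ifit3, Oas1a, Oasl2, Rsad2, Ifi44, Dhx58, Xaf1 and Sp100. Irf7 had 224, 49 and 59 counts in ENR control replicates 1, 2 and 3, Oasl2 had 181, 29 and 26, Ifi44 had 31, 3 and 0, and Usp18 had 10, 0 and 0. Of the other interferon-stimulated genes listed beside the members, 11 of 29 tested were at least 2-fold up in the same library, Oas2 among them with 155, 12 and 21 counts. No listed marker of epithelium, M cells, enterocytes, Paneth cells or immune cells that was tested passed this distance. Only 1 of the 16 immune cell markers was tested, so little can be said of immune cells. Summed over the 38 members, replicate 1 held 1020 CPM and the other controls 622 and 656 CPM, below the 835 to 871 CPM of the RANKL libraries. Members whose call or size rests on this library are given below with and without it. The library was picked out by the members' own levels, so leaving it out raises the fold changes of the members high in it. Values without it describe this dependence and are not a separate test of RANKL.

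**Figure D1:**
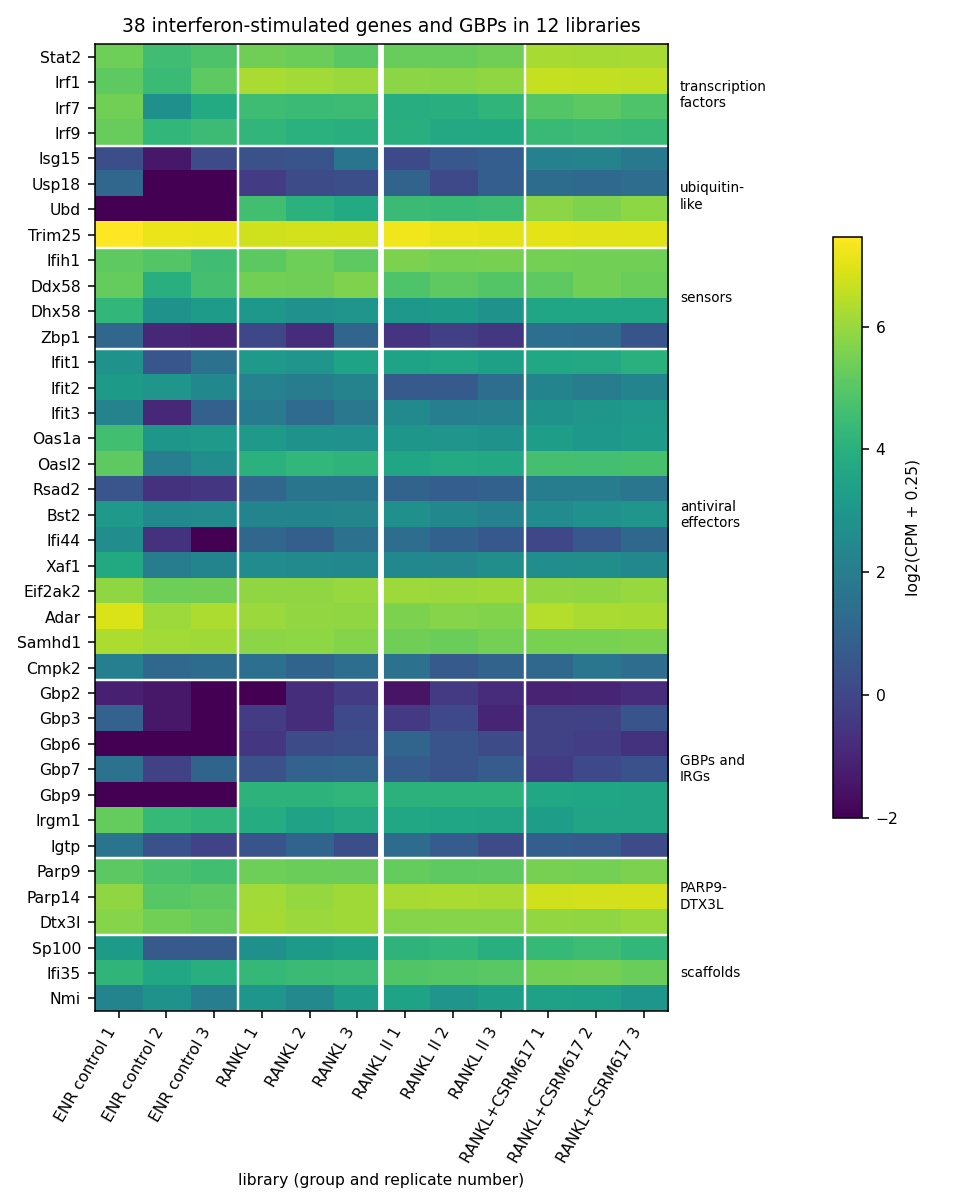
Levels of the 38 members in the 12 libraries, as log2 of CPM plus 0.25, with genes in rows grouped by role and libraries in columns; the thick white line separates the 2 count tables. ENR control replicate 1 is brighter than the other controls for Irf7, Oasl2, Oas1a and Sp100, and Ubd and Gbp9 are at 0 in all 3 controls and present in the other 9 libraries.

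**Figure D2:**
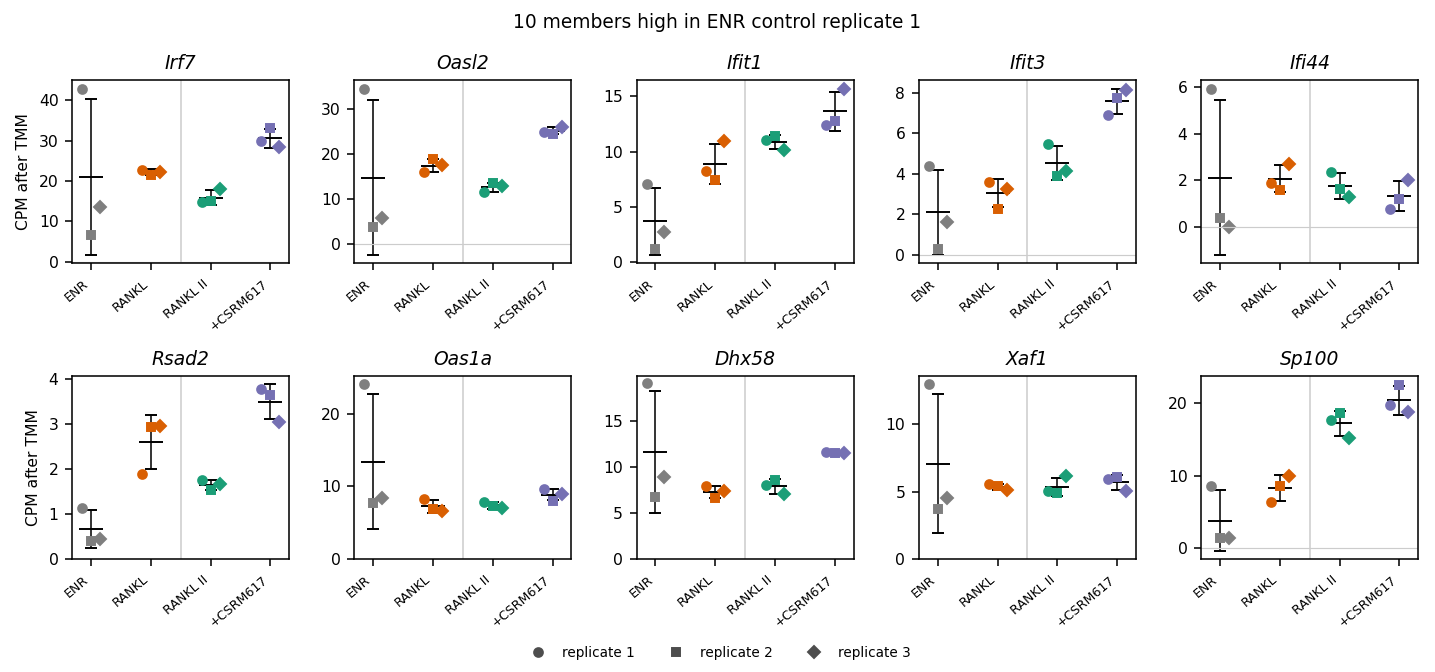
CPM after TMM scaling of the 10 members that were at least 2-fold above both other controls in ENR control replicate 1; symbols mark replicate numbers, horizontal bars the mean and whiskers the SD of 3 libraries. Irf7 sits at 42.9, 6.51 and 13.5 CPM in the 3 controls and between 21.4 and 22.8 CPM in the RANKL libraries.

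The first comparison asks how these genes differ between RANKL organoids and ENR control organoids, tested with edgeR's quasi-likelihood test with Benjamini-Hochberg adjustment over all 13570 genes that passed a filter on low counts. Of the 38 members, 31 passed that filter, and Isg15, Usp18, Gbp2, Gbp3, Gbp6, Zbp1 and Igtp did not. With an adjusted p under 0.05, 11 members were higher with RANKL (28.7% of all genes tested were) and 6 were lower (28.0% of all genes). These shares, 35.5% and 19.4% of the tested members, lie near the background. The median log2 fold change was 0.30 over the tested members and 0.003 over all genes tested. Without ENR control replicate 1, 18 members were higher (24.4% of 14033 genes) and 4 were lower (24.4%), and the median was 0.61. The members' median was -0.26 without ENR control replicate 2 and -0.00082 without replicate 3, so its sign changed with the control that was left out.

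Among the transcription factors, Irf1, which activates interferon and GBP genes, was at 34.1, 21.7 and 34.6 CPM in ENR control and at 76.4, 70.7 and 65.2 CPM in RANKL. The groups did not overlap, and the log2 fold change was 1.26 (SE 0.141, adjusted p = 1.74e-06). Irf9, the DNA-binding partner of STAT2, was at 38.3, 19.1 and 22.3 CPM in ENR control and at 18.2, 16.3 and 15.4 CPM in RANKL. Its fall of -0.65 (SE 0.213, adjusted p = 0.0188) was -0.30 (adjusted p = 0.103) without ENR control replicate 1 and was not called with GC offsets, which correct each library for a trend with the genes' GC content (adjusted p = 0.0663), or without RANKL replicate 2 or 3. Irf7, the amplifier of type I interferon production, was not called (log2 fold change 0.13, adjusted p = 0.892). Without ENR control replicate 1 its log2 fold change was 1.24 (adjusted p = 0.000344). Stat2 was not called (0.35, adjusted p = 0.0998) but was with the replicate number as a block, without ENR control replicate 1 (0.61, adjusted p = 0.00335) and with GC offsets (0.51, adjusted p = 0.0248).

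Ubd and Gbp9 went from no counts to clear expression. Ubd encodes FAT10, a ubiquitin-like protein that targets proteins for degradation and is induced by interferon-gamma and TNF. It had 0 counts in all 3 ENR control libraries and 215, 142 and 100 counts in RANKL, or 24.1, 16.0 and 13.5 CPM. This was at least 103.5-fold higher, taking 3 counts over the group as the floor (adjusted p = 1.33e-07). Trim25, the ubiquitin ligase that modifies RIG-I, had 175, 145 and 137 CPM in ENR control and 109, 111 and 113 CPM in RANKL. It fell by 0.46 on the log2 scale (SE 0.0934, adjusted p = 0.000639), and the groups did not overlap. Isg15, the ubiquitin-like modifier, had 5, 1 and 4 counts in ENR control and 9, 10 and 22 in RANKL, too few to be tested, and Usp18, which removes it, had 5 to 8 counts in RANKL.

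GBPs are interferon-induced GTPases that coat intracellular pathogens and their vacuoles. They lie in clusters on chromosomes 3 and 5, and of the genes listed only Gbp9, Gbp8 and Gbp4 on chromosome 5 exceeded 2.68 CPM in any library. On the same chromosome Gbp10 and Gbp11 had 0 to 2 counts per library. Gbp9 (chr5:105077630-105139539, minus strand) had 0 counts in each ENR control library and 152, 153 and 135 in RANKL, which was at least 99.7-fold higher (adjusted p = 7.28e-10). Its neighbours, which are not members, moved with it. Gbp4 had 0 counts in ENR control and 100, 77 and 82 in RANKL (at least 58.7-fold higher, adjusted p = 1.98e-08), and Gbp8 had 1, 0 and 3 counts in ENR control and 242, 278 and 270 in RANKL (log2 fold change 6.97, SE 0.356, adjusted p = 1.89e-10). In the GENCODE annotation the 5′ ends of these 3 genes lie within 47 bases of each other, and Gbp9 shares 60 exonic bases with Gbp8 and 60 with Gbp4. Gbp6, on the same chromosome (chr5:105270702-105293698), had 0 counts in ENR control and 4, 8 and 7 in RANKL, at least 4.30-fold higher, and was below the filter. It shares 29.0% of its exonic bases with Gm43302.

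The chromosome 3 GBPs stayed near the floor of detection. Gbp7, whose promoter letters are given above, had 14, 5 and 8 counts in ENR control and 9, 15 and 14 in RANKL (log2 fold change -0.08, adjusted p = 0.895; 0.44 and not called without ENR control replicate 1). Gbp3 had 9, 1 and 0 counts in ENR control and 5, 3 and 6 in RANKL, and Gbp2 had 2 counts in all of ENR control and 7 in RANKL, a ratio of 2.38 (exact interval 0.453 to 23.5, counting error only). Gbp5 had no counts in either group. How the counting divided reads between such closely related genes was not stated, so their values are uncertain. Of the immunity-related GTPases, which act on pathogen vacuoles, Irgm1 fell. It had 36.8, 19.7 and 17.8 CPM in ENR control and 14.3, 10.6 and 12.7 CPM in RANKL (log2 fold change -0.97, SE 0.244, adjusted p = 0.00484). Without ENR control replicate 1 its log2 fold change was -0.60 (adjusted p = 0.00780). Igtp, with 3 to 15 counts in ENR control and 7 to 16 in RANKL, was not tested.

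**Figure D3:**
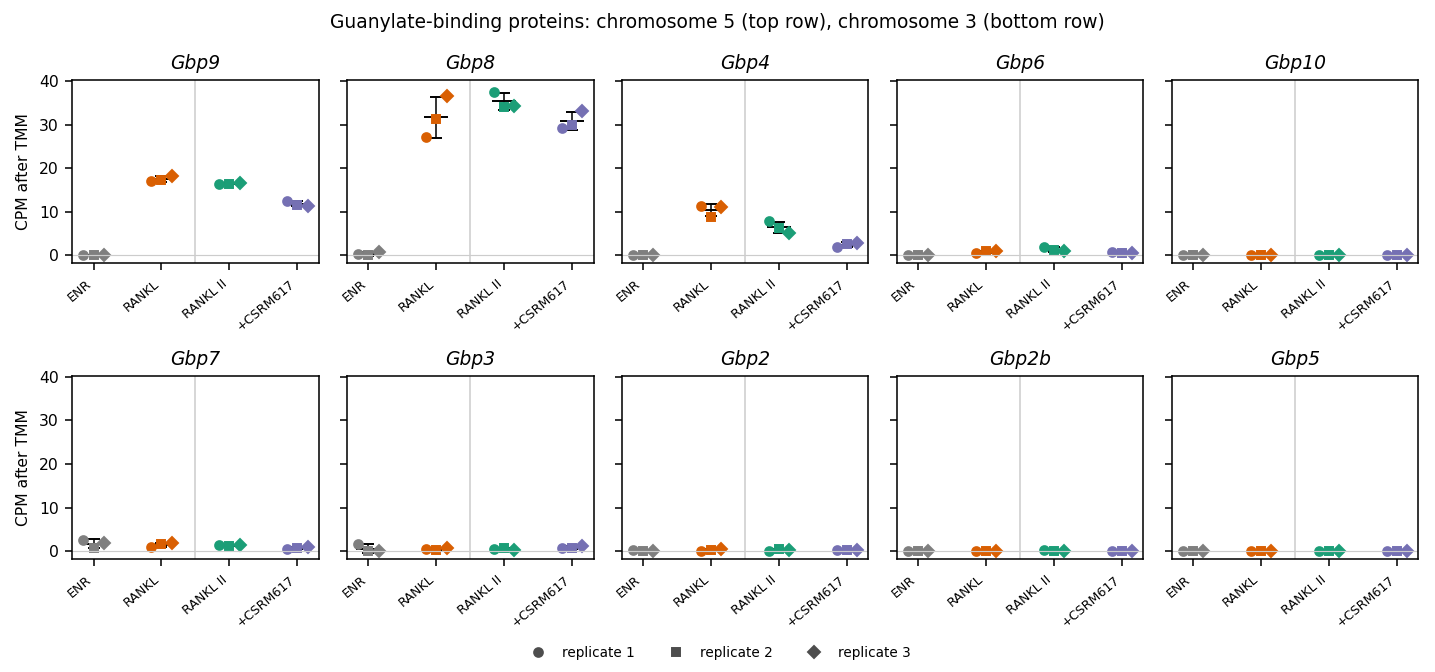
CPM after TMM scaling of 10 guanylate-binding protein genes in the 12 libraries, on 1 shared vertical scale, with the chromosome 5 genes above and the chromosome 3 genes below; horizontal bars are means and whiskers SDs of 3 libraries. Gbp9, Gbp8 and Gbp4 are at or near 0 in ENR control and between 8.68 and 36.5 CPM in RANKL, while no chromosome 3 gene exceeds 2.68 CPM in any library.

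Of the 13 antiviral effectors, 3 were higher with RANKL and 3 lower (28.7% and 28.0% of all genes tested were). Rsad2 (viperin, which makes a chain-terminating nucleotide) had 6, 3 and 2 counts in ENR control and 17, 26 and 22 in RANKL. Its log2 fold change was 1.98 (SE 0.432, adjusted p = 0.000965), and 2.57 without ENR control replicate 1. Ifit1, which binds viral RNA without a 2'-O-methylated cap, was at 7.08, 1.196 and 2.74 CPM in ENR control and 8.28, 7.44 and 10.9 CPM in RANKL. The groups did not overlap, although ENR control replicate 1 came close. Its log2 fold change was 1.35 (SE 0.431, adjusted p = 0.0206) and 2.29 (adjusted p = 7.23e-05) without that library, but the call was lost with DESeq2, with GC offsets (1.13, adjusted p = 0.0990) and in 3 of the fits that each left out 1 library (replicate 3 of ENR control, or replicate 1 or 3 of RANKL). Eif2ak2, the kinase PKR, was at 59.3, 41.1 and 42.4 CPM in ENR control and 58.9, 58.5 and 63.7 CPM in RANKL. The groups overlapped through ENR control replicate 1, the log2 fold change was 0.35 (SE 0.122, adjusted p = 0.0239), and with GC offsets it was 0.19 (adjusted p = 0.233). The call was also lost without ENR control replicate 2 or 3 or RANKL replicate 3.

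The 3 effectors that were lower were Ifit2, Adar and Samhd1. Ifit2, which like Ifit1 carries tetratricopeptide repeats, was at 8.61, 7.31 and 5.01 CPM in ENR control and 4.36, 3.72 and 4.46 CPM in RANKL, with no overlap. Its log2 fold change was -0.76 (SE 0.223, adjusted p = 0.00826), and DESeq2 did not call it (adjusted p = 0.0507). Adar, which edits adenosine to inosine in double-stranded RNA, was at 122, 67.5 and 77.5 CPM in ENR control and 65.6, 60.1 and 58.3 CPM in RANKL. Its log2 fold change of -0.53 (SE 0.189, adjusted p = 0.0371) was -0.24 (adjusted p = 0.0793) without ENR control replicate 1. The call was also lost with GC offsets (-0.35, adjusted p = 0.198), with limma on the deposited log2 values and without any 1 RANKL library, and held in 10 of 17 alternatives. Adar shares 16.8% of its exonic bases with Chrnb2 on the other strand, and whether the counting used strand was not stated. Samhd1, which breaks down deoxynucleotides, was at 77.7, 70.4 and 69.1 CPM in ENR control and 55.7, 58.0 and 51.4 CPM in RANKL. It fell by 0.39 on the log2 scale (SE 0.0899, adjusted p = 0.00154), and did so in every alternative run.

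Of the other 7 effectors, 3 turned on the control library that stood apart. Without it, Oasl2 (a relative of the 2'-5'-oligoadenylate synthetases) had a log2 fold change of 1.90 (adjusted p = 5.31e-06), Ifit3 one of 1.95 (adjusted p = 0.00712) and Ifi44 one of 2.93 (adjusted p = 0.00240). With it the same genes gave 0.29, 0.66 and 0.01 and were not called (adjusted p = 0.796, 0.355 and 0.993). Oas1a, Bst2, Xaf1 and Cmpk2 were not called with or without it. Xaf1 (-0.36) and Cmpk2 (-0.28) were at 0.40 and 0.07 without it. Oas1a had a log2 fold change of -0.85 (SE 0.433, adjusted p = 0.1296), or -0.14 without that library, and was called only with the replicate block (adjusted p = 0.00689) and with the block and GC offsets together.

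Of the RNA sensors, Ddx58 (RIG-I) was at 36.8, 15.3 and 24.8 CPM in ENR control and 43.8, 41.7 and 48.7 CPM in RANKL. It was higher by 0.84 on the log2 scale (SE 0.245, adjusted p = 0.0158), with no overlap. It was not called with GC offsets (0.76, adjusted p = 0.0951), with DESeq2 (adjusted p = 0.0558) or without ENR control replicate 3, and was 1.20 without ENR control replicate 1. Ifih1 (MDA5) was not called (0.30, adjusted p = 0.0649, and 0.0396 with the replicate block). Without ENR control replicate 1 it was higher (0.41, adjusted p = 0.0270). Dhx58 (LGP2), the regulator of both, was not called either (-0.63, adjusted p = 0.114). It was with the block (adjusted p = 0.0295), with no filter and without ENR control replicate 2, but without ENR control replicate 1 its log2 fold change was -0.06 (adjusted p = 0.821). Zbp1, a sensor of Z-form nucleic acid, had 10, 2 and 1 counts in ENR control and 7, 3 and 14 in RANKL. The ADP-ribosyltransferase genes Parp9 and Parp14 and the ubiquitin ligase gene Dtx3l lie side by side on chromosome 16, where Parp9 and Dtx3l run in opposite directions and share 458 exonic bases. All 3 were higher (28.7% of all genes tested were). Parp14 rose by 0.71 (SE 0.197, adjusted p = 0.0106), Dtx3l by 0.61 (SE 0.112, adjusted p = 0.000245) and Parp9 by 0.52 (SE 0.121, adjusted p = 0.00189). Parp14 lost its call with GC offsets (0.65, adjusted p = 0.0719) and without ENR control replicate 2.

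Among the scaffolds, Ifi35 was higher (0.49, SE 0.143, adjusted p = 0.00826) and its binding partner Nmi was not called (0.43, adjusted p = 0.152). Ifi35 shares 16.8% of its exonic bases with the antisense gene Gm11626, and whether the counting used strand was not stated, so reads of the pair cannot be told apart. Sp100, a component of nuclear bodies, was at 8.61, 1.33 and 1.37 CPM in ENR control and 6.38, 8.56 and 9.99 CPM in RANKL. Its log2 fold change was 1.19 (adjusted p = 0.133), and 2.60 (adjusted p = 2.07e-05) without ENR control replicate 1.

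**Figure D4:**
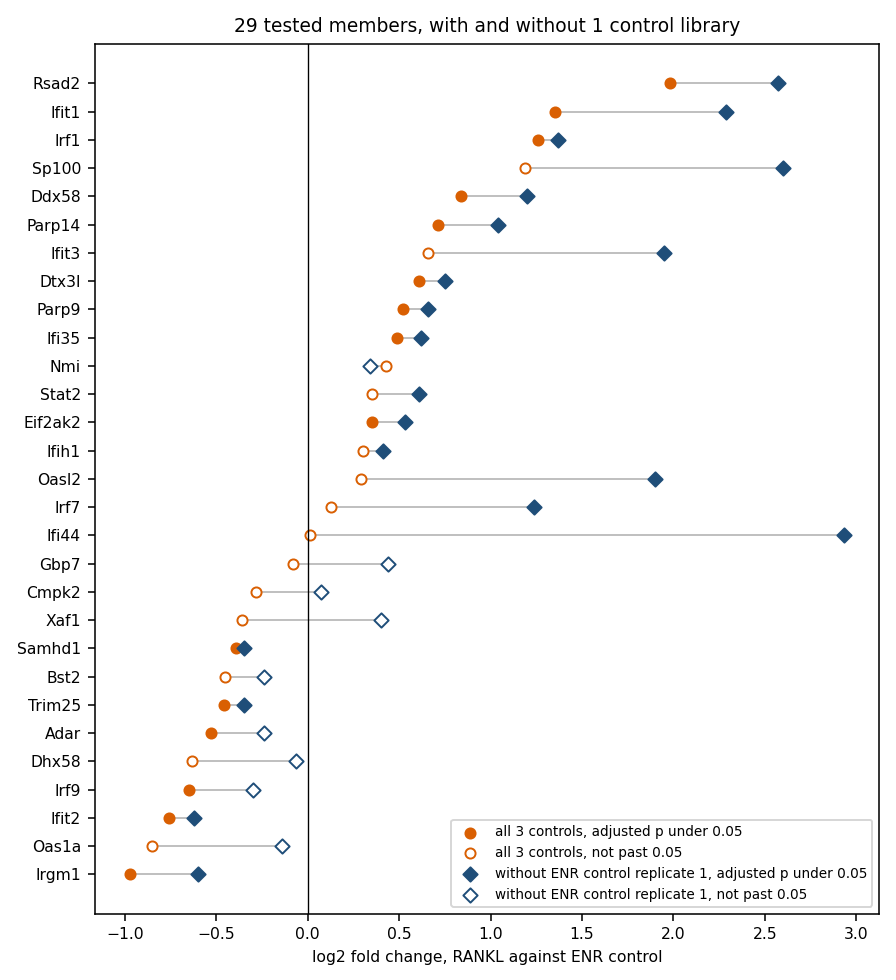
Log2 fold change of the 29 tested members with counts in ENR control, RANKL against ENR control, with all 3 controls (circles) and without ENR control replicate 1 (diamonds); filled symbols have an adjusted p under 0.05. Ifi44 moves from 0.01 to 2.93 and Oasl2 from 0.29 to 1.90, while Irf1 moves from 1.26 to 1.37 and Samhd1 from -0.39 to -0.35.

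The second comparison asks what CSRM617 changed in organoids that all received RANKL. Of the 38 members 36 passed the filter, Gbp2 and Gbp3 being the exceptions. With CSRM617, 23 members were higher (35.2% of the 14167 genes tested were) and 4 were lower (36.2%), which is 63.9% and 11.1% of the tested members. The median log2 fold change was 0.37 over the members and -0.02 over all genes tested, and the members' median was 0.20 with limma on the deposited log2 values. With GC offsets, 23 members were higher (32.9% of all genes) and 1 was lower (30.8%), with a median of 0.41. Summed over the 38 members, the libraries held 839 to 856 CPM in RANKL II and 1087 to 1096 CPM with CSRM617.

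All 4 transcription factors were higher (35.2% of all genes tested were). Stat2 was at 38.5, 37.8 and 41.7 CPM in RANKL II and 73.4, 72.1 and 74.6 CPM with CSRM617 (log2 fold change 0.89, SE 0.0555, adjusted p = 1.29e-18). Irf1 was at 56.4, 55.2 and 58.5 CPM in RANKL II and 98.9, 96.9 and 93.1 CPM with CSRM617 (0.76, SE 0.0481, adjusted p = 2.44e-18). Irf9 was at 15.2, 12.9 and 13.3 CPM in RANKL II and 21.2, 22.1 and 20.3 CPM with CSRM617 (0.63, SE 0.0920, adjusted p = 7.99e-08). No library of 1 group reached the other group in any of these, nor in Irf7, which was higher by 0.93 (SE 0.0855, adjusted p = 4e-13). How often groups stood apart in this way over all genes was not counted. Their log2 fold changes were smaller with GC offsets, at 0.71 for Stat2, 0.51 for Irf1, 0.53 for Irf9 and 0.57 for Irf7, and stayed past the threshold.

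Of the 4 ubiquitin-like modifier and enzyme genes, 3 were higher and 1 was lower (35.2% and 36.2% of all genes tested were). Ubd was at 21.5, 20.6 and 22.0 CPM in RANKL II and 55.7, 49.3 and 56.7 CPM with CSRM617 (1.33, SE 0.0694, adjusted p = 3.00e-21). Per kilobase of merged exons it became the highest of the 38 members, at 57.9 ± 4.29 CPM per kb (SD, n = 3), followed by Ifi35 at 24.4 ± 1.72 and Irf1 at 24.2 ± 0.735. In ENR control the highest had been Trim25, at 26.5 ± 3.50 CPM per kb. Isg15 had 8, 12 and 19 counts in RANKL II and 39, 55 and 41 with CSRM617, or 0.827, 1.23 and 1.52 against 4.21, 4.47 and 3.30 CPM (1.69, SE 0.249, adjusted p = 6.87e-08). Usp18 was higher by 0.69 (SE 0.273, adjusted p = 0.0214, not called with DESeq2 or without RANKL II replicate 2). Trim25 was lower by a small amount (-0.12, SE 0.0411, adjusted p = 0.00688), its groups overlapped, and it was not called with DESeq2 (adjusted p = 0.0803) or without RANKL II replicate 1.

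Of the sensors, Zbp1 had the largest log2 fold change of the 36 tested members, although with GC offsets Ubd (1.80) passed it (1.79). It had 4, 6 and 6 counts in RANKL II and 23, 29 and 14 with CSRM617, or 0.414, 0.617 and 0.480 against 2.48, 2.36 and 1.13 CPM (1.93, SE 0.376, adjusted p = 1.27e-05). Dhx58 (0.56, SE 0.119, adjusted p = 5.89e-05) and Ddx58 (0.36, SE 0.0740, adjusted p = 4.15e-05) were higher too. Ifih1 was not called (-0.07, adjusted p = 0.278), and with GC offsets it was higher (0.29, adjusted p = 1.67e-06).

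Of the 13 antiviral effectors, 8 were higher with CSRM617 and 1 was lower (35.2% and 36.2% of all genes tested were). Ifit2 had 13, 13 and 30 counts in RANKL II and 42, 45 and 56 with CSRM617 (log2 fold change 1.26, SE 0.229, adjusted p = 4.54e-06). Rsad2 had 17, 15 and 21 counts in RANKL II and 35, 45 and 38 with CSRM617 (1.06, SE 0.229, adjusted p = 6.89e-05). In neither gene did the groups overlap, in counts or in CPM. Oasl2 (0.99), Ifit3 (0.77) and Adar (0.63) followed, then Bst2 (0.37), Ifit1 (0.34) and Samhd1 (0.16). Adar was at 48.3, 52.6 and 50.9 CPM in RANKL II and 84.5, 76.9 and 74.3 CPM with CSRM617 (SE 0.0547, adjusted p = 7.79e-14). Samhd1 was at 41.7, 39.6 and 44.7 CPM in RANKL II and 47.1, 46.3 and 47.9 CPM with CSRM617 (SE 0.0601, adjusted p = 0.0162), and was not called with DESeq2, with upper-quartile scaling or without RANKL II replicate 2.

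Some effector calls depended on the setting. Bst2 (adjusted p = 0.0357), the tetherin that holds budding virus, had overlapping groups and was called in 7 of 16 alternatives. It was not called with DESeq2 (adjusted p = 0.217), and its log2 fold change was -0.02 with GC offsets (adjusted p = 0.914). Eif2ak2 was at 66.9, 65.7 and 68.8 CPM in RANKL II and 59.9, 59.6 and 63.0 CPM with CSRM617 (-0.14, SE 0.0512, adjusted p = 0.0121), and turned to 0.19 (adjusted p = 0.000191) with GC offsets. DESeq2 and 3 of the fits that left out 1 library did not call it. Ifit1 was at 11.1, 11.4 and 10.2 CPM in RANKL II and 12.4, 12.8 and 15.7 CPM with CSRM617 (SE 0.111, adjusted p = 0.00563), and its log2 fold change was 0.78 with GC offsets (adjusted p = 2.16e-12). It was not called with DESeq2 (adjusted p = 0.0713) or without RANKL+CSRM617 replicate 3. Oas1a, Ifi44, Xaf1 and Cmpk2 were not called.

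None of the 5 tested GTPases was higher and 2 were lower (35.2% and 36.2% of all genes tested were). Gbp9 was at 16.4, 16.5 and 16.6 CPM in RANKL II and 12.4, 11.5 and 11.4 CPM with CSRM617 (-0.49, SE 0.0982, adjusted p = 2.04e-05), and at -0.05 (adjusted p = 0.698) with GC offsets. Gbp6 had 18, 11 and 11 counts in RANKL II and 6, 7 and 5 with CSRM617, or 1.86, 1.13 and 0.879 against 0.648, 0.569 and 0.403 CPM. Its log2 fold change was -1.23 (SE 0.397, adjusted p = 0.005095), and -0.72 with GC offsets (adjusted p = 0.0994). It was not called with DESeq2 (adjusted p = 0.0772) or without RANKL II replicate 1 either. The neighbour Gbp4 was lower under both fits, by -1.33 (SE 0.193, adjusted p = 6.24e-08) and -0.96 with GC offsets (adjusted p = 8.34e-07). The list of other GBPs and immunity-related GTPases, which holds Gbp4, had 3 tested genes. Of these, 2 were lower (36.2% of all genes), with a median of -0.19. With GC offsets only Gbp4 was lower (30.8% of all genes), with a median of 0.11. Gbp7, Irgm1 and Igtp were not called, at -0.70, -0.14 and -0.25. The 3 genes of the PARP9 and DTX3L module were higher (35.2% of all genes tested were). Parp14 rose by 0.57 (SE 0.0431, adjusted p = 7.02e-16), Parp9 by 0.37 (SE 0.0618, adjusted p = 1.07e-06) and Dtx3l by 0.21 (SE 0.0537, adjusted p = 0.000538). Ifi35 was higher by 0.43 (SE 0.0668, adjusted p = 2.05e-07; 0.11 with GC offsets, adjusted p = 0.127) and Sp100 by 0.26 (SE 0.0928, adjusted p = 0.0120, not called with DESeq2 or without RANKL II replicate 3 or RANKL+CSRM617 replicate 2), and Nmi was not called.

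**Figure D5:**
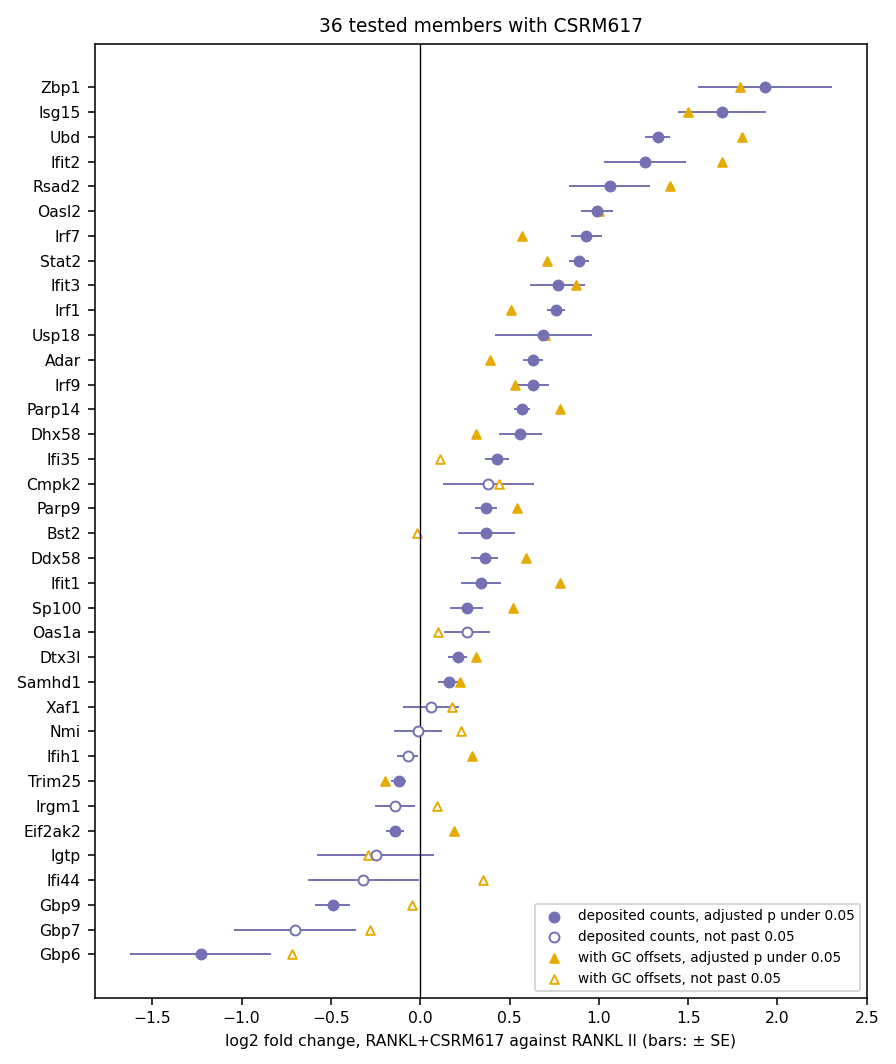
Log2 fold change of the 36 tested members, RANKL+CSRM617 against RANKL II, with bars of 1 SE (circles), and the same with GC offsets (triangles); filled symbols have an adjusted p under 0.05. Zbp1, Isg15, Ubd, Ifit2 and Rsad2 exceed 1 under both fits, and Bst2, Eif2ak2, Ifih1, Ifi44, Irgm1 and Nmi change sign with GC offsets.

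The comparisons share no library, and 31 members were tested in both. Of these, 9 were higher in both comparisons (7.70% of the 13263 genes tested in both): Irf1, Ifit1, Rsad2, Ubd, Parp9, Parp14, Dtx3l, Ddx58 and Ifi35. Irf1, Rsad2, Ubd, Parp9 and Dtx3l kept both calls in every alternative. With GC offsets, Ifit1, Parp14 and Ddx58 lost the RANKL call and Ifi35 lost the CSRM617 call. DESeq2 did not call Ifit1 in either comparison or Ddx58 with RANKL. The 4 members Irf9, Ifit2, Adar and Samhd1 were lower with RANKL and higher with CSRM617 (14.3% of all genes). The reverse, higher with RANKL and lower with CSRM617, held for Gbp9 and Eif2ak2, 2 of 31 (15.6% of all genes), and Trim25 alone was lower in both (5.62% of all genes), a pattern not kept with DESeq2 or without RANKL II replicate 1. Of the opposite calls, those of Irf9 and Adar were lost without ENR control replicate 1. Those of Gbp9 and Eif2ak2 were lost or reversed with GC offsets in the CSRM617 comparison. That of Ifit2 was lost with DESeq2 in the RANKL comparison (adjusted p = 0.0507). That of Samhd1 was lost in the CSRM617 comparison with DESeq2 (adjusted p = 0.0856), with upper-quartile scaling and without RANKL II replicate 2.

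The members were also counted by whether the window held an ISRE core. With CSRM617, 7 of 13 tested members with an ISRE core in the window were higher and 1 was lower (median 0.34). Of 16 without it, 11 were higher and 1 was lower (median 0.41). Of all genes tested there, 35.2% were higher and 36.2% lower. With RANKL 4 of 11 with the core were higher and 1 lower (median 0.35), and 4 and 5 of 16 without it (median 0.07). Of all genes tested with RANKL, 28.7% were higher and 28.0% lower. Without ENR control replicate 1 the RANKL medians with and without the core were 0.53 and 0.51. These are descriptions, and the difference was not tested.

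The interferon ligand genes were at or near 0 in all 12 libraries. The 11 listed, Ifnb1, 5 Ifna genes, Ifnk, Ifne, Ifng, Ifnl2 and Ifnl3, summed to between 0 and 2 counts per library, and Ifnb1, Ifng, Ifnl2 and Ifnl3 had 0 counts in each. Their receptors were expressed. With RANKL, the type II receptor genes Ifngr1 (log2 fold change 1.22, SE 0.0922, adjusted p = 2.04e-08) and Ifngr2 (0.66, SE 0.0938, adjusted p = 2.32e-05) were higher, as were the type I receptor genes Ifnar2 (1.07, SE 0.161, adjusted p = 3.81e-05) and Ifnar1 (0.53, SE 0.0905, adjusted p = 0.000124). The type III receptor gene Ifnlr1 fell. It was at 24.3, 21.3 and 24.6 CPM in ENR control and 2.57, 3.04 and 3.38 CPM in RANKL (-2.96, SE 0.168, adjusted p = 7.06e-10), in every alternative run. Its partner Il10rb was not called (-0.14, adjusted p = 0.427).

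Of the kinase genes, Jak2 (1.01, SE 0.0819, adjusted p = 5.13e-08) and Jak1 (0.48, SE 0.0920, adjusted p = 0.000337) were higher with RANKL, and Tyk2 was not called (-0.22, adjusted p = 0.0870). With CSRM617, Jak1 (0.24) and Tyk2 (0.58) were higher, and Ifnar1 (-0.25), Ifnar2 (-0.49), Ifngr1 (-0.19) and Jak2 (-0.50) were lower. Ifngr2 (-0.03), Ifnlr1 (-0.03) and Il10rb (-0.11) were not called there. Of the 7 negative regulators, Socs1, which blocks JAK kinases, had 5, 8 and 8 counts in ENR control and 66, 79 and 63 in RANKL (2.73, SE 0.272, adjusted p = 4.72e-07). It was not called with CSRM617 (0.06, adjusted p = 0.663), but was lower with GC offsets (-0.39, adjusted p = 0.00626).

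The sensing and adaptor list had 10 tested genes, with 6 calls upward and 3 downward for RANKL (28.7% and 28.0% of all genes) and 7 and 3 for CSRM617 (35.2% and 36.2%). Traf3, an adaptor of both RANK and antiviral signalling, was higher by 1.26 (SE 0.0850, adjusted p = 5.66e-09) and then by 0.57 (SE 0.0402, adjusted p = 1.06e-16). Tlr3, the endosomal sensor of double-stranded RNA, was higher by 1.10 (SE 0.152, adjusted p = 1.60e-05) with RANKL. With CSRM617 it was lower by -0.70 (SE 0.0932, adjusted p = 1.01e-08), a fall that was not there with GC offsets (-0.01, adjusted p = 0.955). Among the other IRF genes, Irf8 was lower with RANKL (-1.72, SE 0.159, adjusted p = 2.26e-07) and higher with CSRM617 (0.87, SE 0.109, adjusted p = 2.23e-09), and Irf5 was higher with RANKL (1.17, SE 0.321, adjusted p = 0.00520).

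A further list of 36 interferon-stimulated genes gave 8 higher and 3 lower of 29 tested with RANKL (28.7% and 28.0% of all genes). Without ENR control replicate 1 it gave 14 and 2 of 31 (24.4% and 24.4% of all genes). With CSRM617 it gave 15 and 3 of 30 (35.2% and 36.2% of all genes). The list's median log2 fold changes were 0.19, 0.77 and 0.31 in the same order. With RANKL, Ifitm1 (4.03, SE 0.397, adjusted p = 4.08e-07), Ifit1bl1 (2.36, SE 0.290, adjusted p = 1.34e-05), Ifit3b (2.19, SE 0.634, adjusted p = 0.00776) and the chemokine gene Cxcl10 (2.44, SE 0.421, adjusted p = 0.000121) were higher, and Ifi27l2b was lower (-1.99, SE 0.310, adjusted p = 0.00198). Ddx60 was higher by 1.23 (SE 0.404, adjusted p = 0.0379) and not with GC offsets (0.79, adjusted p = 0.229). With CSRM617, Cxcl10 (1.69), Oasl1 (1.22), Mx1 (1.15), Oas1g (1.08) and Oas2 (1.04) were higher.

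Of the IFITM genes, whose products restrict virus entry at membranes, Ifitm3 and Ifitm2 were lower with CSRM617. Ifitm3 was at 39.4, 46.5 and 32.8 CPM in ENR control and 83.9, 94.9 and 88.6 CPM in RANKL (1.15, SE 0.111, adjusted p = 3.64e-07). It was at 39.9, 37.9 and 40.7 CPM in RANKL II and 14.3, 14.6 and 14.9 CPM with CSRM617 (-1.44, SE 0.0759, adjusted p = 4.42e-21). Ifitm2 was lower with CSRM617 as well (-1.34, SE 0.101, adjusted p = 6.88e-16). Both falls were as large with GC offsets, at -1.58 and -1.62.

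Markers of immune cells stayed low. The 16 listed summed to 5.18 to 6.84 CPM in ENR control, 4.40 to 6.08 CPM in RANKL, 5.89 to 8.02 CPM in RANKL II and 10.7 to 11.3 CPM with CSRM617. Most of this was Cd68, without which the sums were 0 to 1.196, 1.12 to 1.755, 2.47 to 2.90 and 2.74 to 3.41 CPM. The part of other cells in these results was not tested. Cd3g, Cd4, Cd8a, Adgre1, Nkg7 and Klrd1 had 0 counts in all 12 libraries and Ptprc 0 to 7. The 10 stromal and endothelial markers summed to 6.11 to 7.27 CPM in ENR control, 10.5 to 14.1 CPM in RANKL, 9.77 to 11.67 CPM in RANKL II and 13.4 to 15.01 CPM with CSRM617, most of it Pdgfrb. Col1a2, Col3a1, Cdh5, Kdr and Dcn were at 0 in every library.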

How the data were processed

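Counts per gene from 12 libraries were analysed. Per the labels' protocols, total RNA (1 µg) was depleted of ribosomal RNA and read as 42-bp pairs. Per the submitters' processing notes, STAR, HTSeq 0.13.5, DESeq2 1.34.0 and mm10 (GRCm38) were used. Neither the gene annotation nor the strand setting is given in the sources used here. The deposited tables hold the authors' raw counts and log2 normalized values, 1 of each kind for each comparison. Each comparison was fitted on its own table of 6 libraries with edgeR 4.0.16 (TMM, filterByExpr, robust quasi-likelihood test, Benjamini-Hochberg over all genes, threshold 0.05). CPM used TMM-scaled library sizes, and exon lengths came from GENCODE vM21. Floors and intervals cover counting error only. The members and lists were chosen with earlier results of these data known. Members past the threshold with an absolute log2 fold change of at least 1, or with opposite calls, got their values in every library. The labels number the libraries by experiment; deviations of libraries with the same number correlated at 0.00406, 0.0569 and -0.00689 (RANKL) and -0.0111, 0.0127 and 0.00453 (CSRM617), so pairing rests on the labels. Alternatives were DESeq2 1.42.0, other scalings and filters, the replicate block, lowess GC offsets (span 0.3, exonic GC content of each gene), limma 3.58.1 on the deposited log2 values and leaving out each library. The edgeR script was tested on simulated data. Some genes of the lists are not reported here.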

Additional observations from a re-analysis of the deposited data

How the results depend on the processing

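With RANKL, 471 of the members' values under an alternative stayed on the main fit's side of the threshold. A further 26 passed it newly, 29 lost the call and none of the called values reversed. Values called in neither fit counted as unchanged even where their sign changed, as for Xaf1 without ENR control replicate 1 (-0.36 to 0.40). With CSRM617 the same counts were 534, 4 and 31, and 6 reversed, all under GC offsets without or with the replicate block: Bst2 (-0.02 in both), Ifih1 (0.29 in both) and Eif2ak2 (0.19 and 0.20). The cause was not tested. The replicate block brought Stat2 (adjusted p = 0.0256), Oas1a, Ifih1 and Dhx58 past the threshold with RANKL (13 members higher and 8 lower) and changed no other member's call in either comparison. GC offsets without ENR control replicate 1, chosen after seeing the data, gave 17 members higher and 4 pathway genes lower with RANKL (11 and 8 without offsets and with all controls). Leaving out each library in turn gave 8 to 18 members higher and 4 to 8 lower with RANKL, with a median between -0.26 and 0.61, and 20 to 24 and 2 to 5 with CSRM617. For pathway genes the ranges were 24 to 32 higher and 6 to 13 lower with RANKL and 26 to 29 and 13 to 15 with CSRM617. For all genes they were 3362 to 4132 and 3287 to 4068 with RANKL, and 4714 to 5037 and 4781 to 5084 with CSRM617. The members lower with CSRM617 numbered 1 under DESeq2, under GC offsets and under GC offsets with the block, against 4. Median CPM per kb over the members moved from 4.3 to 4.23 with upper-quartile factors in RANKL+CSRM617. Without mitochondrial and ribosomal RNA loci the total shrinks. The median then was 3.09 in ENR control (from 2.3), 4.31 in RANKL (from 3.2), 3.66 in RANKL II (from 2.97) and 5.33 in RANKL+CSRM617. The relaxed ISRE core GAAANNGAA was in 18 of the 31 promoters, against 15. Few counts limit Isg15, Usp18, Zbp1, Gbp2, Gbp3, Gbp6 and Igtp.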

Other observations

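Xaf1, a pro-apoptotic interferon-stimulated gene, and Cmpk2, a mitochondrial nucleotide kinase gene next to Rsad2 on chromosome 12, did not pass the threshold in either comparison. Cmpk2 (chr12:26469204-26479837) had 21, 15 and 10 counts in ENR control and 22, 16 and 18 in RANKL, while Rsad2 (chr12:26442746-26456452) rose from 2 to 6 counts per library to 17 to 26. With CSRM617, Cmpk2 had a log2 fold change of 0.38 (SE 0.255, adjusted p = 0.172) and Rsad2 one of 1.06. The difference between these neighbours was not tested.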
